A study of Homo sapiens with 20 samples.

Results

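The effect of ZBTB48 loss was examined in interferon gamma (IFNγ) treated cells by comparing 5 WT clones with 5 clones labelled ZBTB48 KO, 10 of the 20 RNA-seq libraries of the series, across 19383 tested genes of 43366 in the count table. All clones derive from U2OS, an osteosarcoma cell line, and each of these 10 libraries is 1 clone kept for 24 h in medium with 250 U/ml IFNγ. The other 10 libraries are untreated libraries of the same clones and are used here only for side by side values. The groups therefore share the cell line, the culture medium and the cytokine, and differ in the label of the ZBTB48 gene and in which single clones they hold, so that an effect of ZBTB48 and differences between single clones can be told apart only as far as 5 clones per label allow.

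ZBTB48, also called TZAP, is a zinc finger protein that binds telomeric repeats and also the promoters of a small number of genes. CIITA is the class II transactivator, a coactivator without DNA binding of its own that is recruited to the promoters of MHC-II genes by the factors RFX5, RFXAP, RFXANK, NFY and CREB1. Most cells outside the immune system make CIITA and MHC-II only when IFNγ activates the JAK kinases at its receptor, whereas B cells and dendritic cells make them constantly.

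In the treated libraries the total count per library was 53328902 to 72952859, and 3 counts, taken as the floor of detection, correspond to 0.0409 to 0.0574 CPM (read counts scaled to library size by TMM). Pearson's r over genes between pairs of treated libraries was 0.956 to 0.986. Treated and untreated libraries with the same label and number deviated together from their group means (r = 0.645 to 0.846 over 21052 genes) except KO replicates 4 and 5, at 0.0028 and 0.0722, where the treated KO replicate 4 was closest to the untreated KO replicate 5 (r = 0.77) and the treated KO replicate 5 to the untreated KO replicate 4 (r = 0.68). Both carry the KO label, so the treated comparison does not depend on their numbers. Of the osteoblast lineage markers COL1A1, SPARC and RUNX2 were expressed, SP7 and BGLAP were below the floor on average and IBSP was at 0 in every treated library. Of the B-cell and other blood markers, CD3E was at 0 in every treated library, and the summed level of the 14 markers was 8.06 to 32.6 CPM in WT clones and 3.03 to 28.6 CPM in libraries labelled KO.

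ZBTB48 transcript itself did not follow the KO label in every clone. The 5 treated WT clones had 11.3, 9.79, 8.91, 11.7 and 9.08 CPM. The treated libraries labelled KO had 1.70, 1.80, 15.97, 3.84 and 5.17 CPM, and KO replicate 3 thus lay above all WT clones while the other 4 lay below them. The mean difference on the log2 scale was 1.35 with a two-sided exact permutation p of 0.0556, and 1.85 without KO replicate 3 (exact permutation p = 0.00794). The mRNA level does not show whether protein was lost. Libraries are named by their label below, and results are given with and without KO replicate 3.

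CIITA (chromosome 16, 10866206 to 10943021, GRCh38) was lower in every treated library labelled KO than in every treated WT clone. The WT clones had 111, 55.4, 38.6, 90.6 and 104.5 CPM and the libraries labelled KO 3.06, 6.17, 11.2, 18.8 and 7.30 CPM. The lowest WT clone was replicate 3 and the highest library labelled KO was replicate 4, and the groups did not overlap. The mean log2 difference was 3.25 (two-sided exact permutation p = 0.00794, the smallest that 5 against 5 libraries allow), and edgeR gave a log2 fold change of 3.08 (SE 0.47) with an adjusted p of 0.0951. DESeq2 gave an adjusted p of 2.21e-09, and over the 18 alternatives the adjusted p ranged from 2.21e-09 to 0.695. Without KO replicate 3 the log2 fold change was 3.16 (SE 0.54, edgeR adjusted p = 0.37). In bulk RNA, fewer cells with CIITA and less CIITA per cell cannot be told apart. On the opposite strand DEXI shares 7.62% of CIITA's exonic bases, counts per gene sum over all first exons of CIITA and do not tell its promoters apart, and the strand setting of the counting is not given in the sources used here.

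The MHC-II genes moved with CIITA. HLA-DRA, the invariant alpha chain of HLA-DR, had 677, 468, 142, 893 and 214 CPM in the WT clones and 5.59, 7.20, 47.3, 133 and 10.5 CPM in the libraries labelled KO. The lowest WT value lay above the highest value labelled KO, by a margin much smaller than the spread within either group. CD74, the invariant chain that occupies the MHC-II groove until peptide is loaded, had 1429, 1034, 257, 889 and 732.5 CPM in the WT clones and 11.4, 4.95, 153.5, 443 and 20.5 CPM in the libraries labelled KO. Here KO replicate 4 exceeded WT replicate 3, so the groups overlapped. HLA-DMB, a chain of the peptide exchange factor HLA-DM, had 43.8, 32.2, 11.9, 42.1 and 21.3 CPM against 1.03, 0.810, 3.21, 6.14 and 0.958 CPM, without overlap.

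All 10 MHC-II chain genes, CD74 included, had log2 fold changes above 0, with a median of 3.50 and a range of 1.71 to 4.27, against a median of -0.0161 over the 19383 genes tested. The size depends on the estimator, since with shrunken DESeq2 fold changes the median of these 10 genes was 0.30 and that of the 4 editing genes 0.25. All 10 had an unadjusted edgeR p under 0.05, a class to which 4.35% of all genes belong in either direction and 2.37% on the WT side, and in 5 of the 10 (HLA-DRA, HLA-DRB5, HLA-DQA1, HLA-DQB1 and HLA-DPB1) the groups did not overlap, against 0.573% of all genes on the WT side. None reached an adjusted p under 0.01 in edgeR. DESeq2 called HLA-DQB1 (log2 fold change 2.90, DESeq2 adjusted p = 8.97e-05, range over 18 alternatives 8.97e-05 to 0.999). Of the peptide editing genes, HLA-DMA (log2 fold change 4.11, SE 0.85), HLA-DMB (3.62, SE 0.63) and HLA-DOA (4.14, SE 1.23) differed strongly on average between labels. Among them only HLA-DMB set all WT clones above all libraries labelled KO. In HLA-DMA and HLA-DOA, KO replicate 4 exceeded WT replicate 3 in CPM. DESeq2 called HLA-DMA and HLA-DMB. With shrunken fold changes DESeq2 called none of CIITA, HLA-DQB1, HLA-DMA and HLA-DMB, whose log2 fold changes were then 0.99, 0.68, 0.36 and 0.78, all under the 2-fold minimum. HLA-DOB, a chain of the HLA-DM antagonist HLA-DO, had 1.71, 1.92, 2.44, 3.94 and 0.964 CPM in WT clones and 1.68, 0.221, 2.37, 1.88 and 1.34 CPM in libraries labelled KO. It thus did not separate the labels (log2 fold change 0.54, 95% confidence interval -0.68 to 1.75, edgeR adjusted p = 0.996). The pseudogene HLA-DRB6 followed the chains, with a mean of 4.33 ± 3.18 CPM (SD, n = 5) against 0.295 ± 0.374 CPM (SD, n = 5). Reads of HLA-DRB and HLA-DQ genes can be lost or exchanged between alleles and paralogues, so the levels of HLA-DRB5, HLA-DRB6 and HLA-DQA2 are uncertain.

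**Figure D1:**
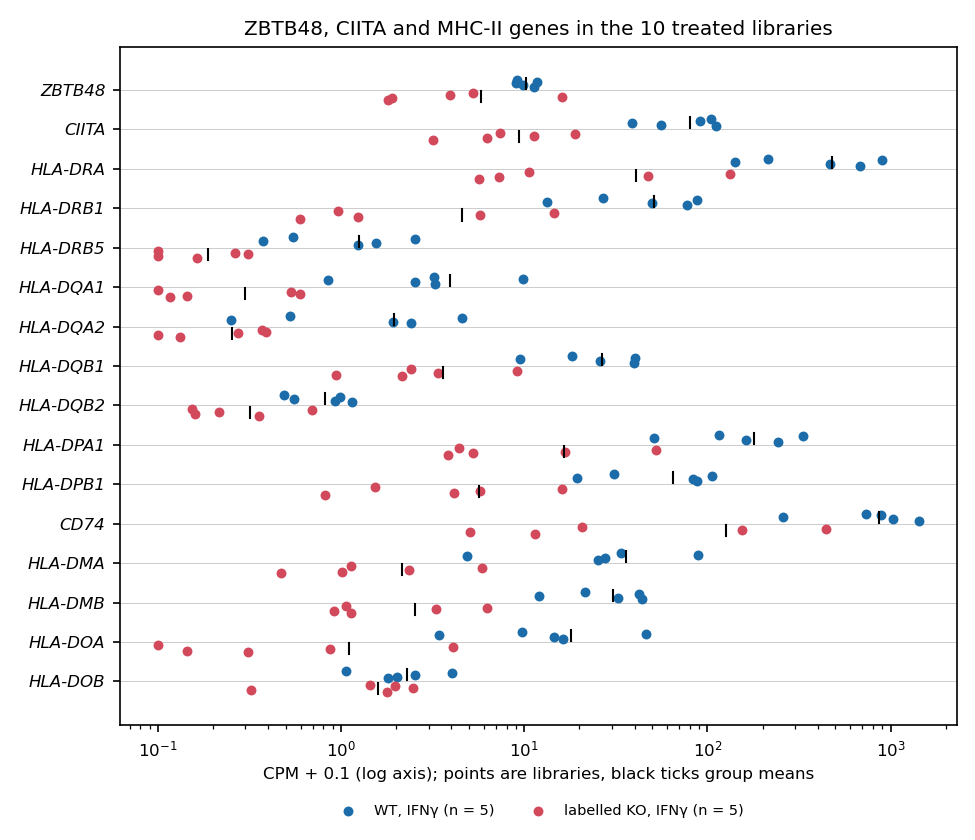
CPM + 0.1 on a log axis for ZBTB48, CIITA and 14 MHC-II genes in treated WT clones (blue, n = 5) and treated libraries labelled KO (red, n = 5). Each point is a library and black ticks are group means. CIITA separates the labels at 38.6 against 18.8 CPM, the MHC-II genes except HLA-DOB sit further left in most libraries labelled KO, and 1 library labelled KO has more ZBTB48 than any WT clone.

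Per kilobase of exon the most abundant members in WT clones were CD74 at a mean level of 525 CPM per kb and HLA-DRA at 388 CPM per kb, followed by HLA-DPA1 at 103 CPM per kb. Of the DQ chains HLA-DQB1 had a mean level of 16.3 CPM per kb and HLA-DQA1 of 1.76 CPM per kb. In the libraries labelled KO the same 3 leading genes had mean levels of 76.6, 33.0 and 9.33 CPM per kb, and their order was kept. Without KO replicate 3 the median log2 fold change of the 10 chain genes was 3.56 and that of the 4 editing genes 3.91, against 3.50 and 3.86 with it.

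The factors that hold CIITA at these promoters differed little. RFX5 had 104, 97.8, 85.9, 94.1 and 103 CPM in WT clones and 78.5, 67.2, 79.0, 86.4 and 75.5 CPM in libraries labelled KO. It was the only one of the 7 with an unadjusted p under 0.05 (log2 fold change 0.31, SE 0.11, edgeR unadjusted p = 0.0153, adjusted p = 0.996), and its groups overlapped by the narrowest of margins between WT replicate 3 and KO replicate 4. RFXAP, RFXANK, NFYA, NFYB, NFYC and CREB1 had log2 fold changes between -0.26 and -0.01, none past the threshold.

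Promoter windows were searched for the elements these factors read, because the MHC-II genes move together. Both strands were searched for a consensus of the X box, bound by the RFX complex, and for GATTGG, the core of the Y box, bound by NFY. Of the 14 MHC-II genes 13 had a RefSeq window from 250 bases before to 50 after a transcript start (GRCh38.p14). GATTGG was found in 10 of these 13 genes against 15.1% of all windows, and the X box consensus in 3 of 13 against 0.199% of all windows. The windows of HLA-DMA and HLA-DMB, minus strand, are shown as examples of windows that hold both elements, as does that of HLA-DQB1. All 3 genes were called by unshrunken DESeq2, but only exact matches to the X box consensus were counted. The windows of HLA-DRB1, HLA-DRB5, HLA-DOA, HLA-DOB and HLA-DQB2, which neither tool called, hold near matches to it. HLA-DRA had no window. A link between these elements and the calls was not tested. The window of the butyrophilin gene BTN3A3 also holds both, and neither tool called that gene. CD74, HLA-DPA1 and HLA-DQA1 have neither match. HLA-DOB, which did not separate the labels, has 2 GATTGG matches. In the windows printed below the matches are in capitals.
HLA-DMA, chr6:32953048-32953347: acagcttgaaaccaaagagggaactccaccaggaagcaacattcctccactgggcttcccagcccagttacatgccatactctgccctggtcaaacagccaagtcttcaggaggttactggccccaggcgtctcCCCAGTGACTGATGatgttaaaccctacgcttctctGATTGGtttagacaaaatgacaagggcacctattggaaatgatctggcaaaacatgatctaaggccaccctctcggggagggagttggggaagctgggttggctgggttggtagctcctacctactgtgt
HLA-DMB, chr6:32940979-32941278: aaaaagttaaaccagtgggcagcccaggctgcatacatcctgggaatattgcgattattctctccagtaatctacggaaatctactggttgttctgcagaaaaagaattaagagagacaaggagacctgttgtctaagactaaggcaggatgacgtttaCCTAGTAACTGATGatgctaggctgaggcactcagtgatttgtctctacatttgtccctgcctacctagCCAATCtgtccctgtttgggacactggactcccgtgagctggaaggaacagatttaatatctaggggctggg

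Across all genes, edgeR called 3 of 19383 at an adjusted p under 0.01 and more than 2-fold, the study's cut-offs, which is 0.0155% of genes, and all 3 were higher in WT clones. At an adjusted p under 0.05 with no minimum fold 4 genes passed (0.0206%), PPP3CB being the addition. DESeq2 called 16 of 19341 genes (0.0827%), 15 higher in WT clones and 1 higher in libraries labelled KO. No gene passed on the KO side in edgeR, where 384 genes (1.98%) had an unadjusted p under 0.05 in that direction. Treated groups did not overlap for 111 genes (0.573%) higher in WT clones and 49 (0.253%) higher in libraries labelled KO. Without KO replicate 3 edgeR called 3 genes, the same 3.

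The 3 called genes are mitochondrial fission process 1 (MTFP1, an inner mitochondrial membrane protein that promotes fission), peroxisomal membrane protein 2 (PXMP2, a channel of the peroxisome membrane) and VWA5A. All 3 were in a list of 4 ZBTB48 targets taken from the study, so the list is not independent evidence of their direction. MTFP1 (chromosome 22, 30425768 to 30429054) had 42.1, 44.5, 33.2, 37.1 and 47.0 CPM in WT clones and 0.513, 0.236, 0.287, 0.902 and 0.416 CPM in libraries labelled KO. The difference between labels was far wider than the spread within them, a fold of 86.7 between means, with a log2 fold change of 6.42 (SE 0.36, edgeR adjusted p = 1.13e-05). PXMP2 (chromosome 12, 132687587 to 132704985) had 29.7, 27.8, 29.0, 38.0 and 30.1 CPM against 2.98, 4.32, 2.03, 3.09 and 2.15 CPM. About a 10.6-fold difference separated the means (log2 fold change 3.40, SE 0.22, edgeR adjusted p = 3.61e-05), and transcripts of PXMP2 remained well above the floor in every library labelled KO. VWA5A (chromosome 11, 124115450 to 124147721) had 7.10, 8.62, 9.47, 11.2 and 3.67 CPM in WT clones. In the libraries labelled KO it had 1, 7, 8, 3 and 6 counts, or 0.0160, 0.103, 0.153, 0.0541 and 0.108 CPM, so KO replicates 1 and 4 were at or under the floor of 3 counts. Its log2 fold change was 6.49 (SE 0.52, edgeR adjusted p = 0.000198). The fourth list member, SNX15, was at 0 in all treated libraries, and all of its exonic bases are shared with the readthrough gene ARL2-SNX15 on the same strand, so reads from it may not have been assigned.

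KO replicate 3, with ZBTB48 mRNA above the WT level, had 0.287 CPM of MTFP1, 2.03 CPM of PXMP2 and 0.153 CPM of VWA5A, within or below the range of the other libraries labelled KO for MTFP1 and PXMP2. The promoter windows of MTFP1 and PXMP2, plus strand, are printed because both genes were called under every alternative tried in treated libraries. They were searched on both strands for TNAGGG, the telomeric repeat unit TTAGGG with any base at its second position. MTFP1 has no match in this window and PXMP2 has 1, in capitals. The motif is short and occurs in 47.4% of 35116 RefSeq promoter windows of 300 bases (GRCh38.p14), and TTAGGG itself in 9.05%.
MTFP1, chr22:30425518-30425817: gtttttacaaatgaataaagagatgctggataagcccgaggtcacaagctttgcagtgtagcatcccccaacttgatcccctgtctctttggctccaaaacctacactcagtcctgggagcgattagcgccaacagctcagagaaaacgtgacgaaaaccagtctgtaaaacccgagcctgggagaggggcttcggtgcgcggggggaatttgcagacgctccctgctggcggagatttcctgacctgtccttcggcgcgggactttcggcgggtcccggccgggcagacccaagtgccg
PXMP2, chr12:132687337-132687636: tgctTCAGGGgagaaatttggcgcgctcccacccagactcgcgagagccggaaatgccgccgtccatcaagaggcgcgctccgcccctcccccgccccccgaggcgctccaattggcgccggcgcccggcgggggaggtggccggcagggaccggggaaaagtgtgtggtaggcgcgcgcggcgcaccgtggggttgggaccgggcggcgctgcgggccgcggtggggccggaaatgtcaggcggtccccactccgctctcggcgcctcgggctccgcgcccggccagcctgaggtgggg

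A wider set of genes was past a threshold by DESeq2 or by the looser edgeR threshold. PPP3CB, the catalytic beta subunit of the calcium-dependent phosphatase calcineurin, had 81.6, 72.1, 90.5, 72.2 and 107 CPM in WT clones and 11.6, 30.1, 21.7, 28.9 and 25.6 CPM in libraries labelled KO. The groups were clearly apart, with a log2 fold change of 1.83 (SE 0.24, edgeR adjusted p = 0.0354, range over 18 alternatives 5.60e-09 to 0.218). TMEM63C, a member of a family of mechanosensitive channels, had 4.33, 6.60, 6.80, 6.995 and 7.03 CPM against 1.60, 0.368, 0.382, 0.704 and 0.307 CPM (log2 fold change 3.23, SE 0.46, edgeR adjusted p = 0.0536). WT replicate 1 was the lowest WT clone and KO replicate 1 the highest library labelled KO, without overlap. CCDC106 had 11.5, 12.3, 5.78, 6.96 and 6.99 CPM against 2.53, 2.78, 1.68, 2.64 and 2.48 CPM (log2 fold change 1.83, SE 0.27, edgeR adjusted p = 0.0672), again without overlap.

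The remaining genes on the WT side that DESeq2 called had edgeR adjusted p values of 0.262 or more. VWA5B2 had a mean of 24.9 ± 12.6 CPM (SD, n = 5) in WT clones against 7.30 ± 1.14 CPM (SD, n = 5). The mean of TCN1, a vitamin B12 binding protein, rested on 1 clone, since WT replicate 4 had 24.3 CPM while the other WT clones had 1.90 to 4.06 CPM and the libraries labelled KO 0.192 to 0.940 CPM. ARHGAP24, a GTPase activating protein for Rac, had 2.90 ± 0.708 CPM against 0.874 ± 0.431 CPM, TMEM100 had 2.21 ± 0.361 CPM against 0.756 ± 0.251 CPM, and BANK1, a scaffold protein known from B-cell receptor signalling, had 7.78 ± 1.89 CPM against 3.52 ± 0.695 CPM (SD, n = 5 in each group). All 5 of these genes were without overlap between labels.

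On the KO side 8 of 19383 tested genes met the rule for large non-overlapping differences, against 30 on the WT side. The rule asked for more than 2-fold and a mean of at least 1 CPM in the higher group. At any fold and level the groups did not overlap for 0.253% of genes on the KO side and 0.573% on the WT side. EBF3, an early B-cell factor family transcription factor, had 4.78, 3.43, 1.30, 4.67 and 2.82 CPM in WT clones and 6.78, 7.53, 15.6, 8.07 and 8.28 CPM in libraries labelled KO (log2 fold change -1.46, SE 0.36, edgeR adjusted p = 0.827). KO replicate 3 was the highest, and without it the log2 fold change was -1.20. RELA-DT, a divergent transcript of the NF-κB subunit gene RELA, had 1.54, 2.38, 2.90, 2.17 and 2.50 CPM against 5.58, 4.01, 5.74, 4.30 and 3.74 CPM. It was the single gene that DESeq2 called on this side, and only with unshrunken fold changes (log2 fold change -1.03, DESeq2 adjusted p = 0.00786, range over 18 alternatives 0.00786 to 1). ENDOG, a mitochondrial endonuclease, had 1.88 ± 0.659 CPM in WT clones and 4.11 ± 0.853 CPM in libraries labelled KO (SD, n = 5 each), but SPOUT1 on the opposite strand shares 46.1% of its exonic bases. The other 5, ZIM2-AS1, ROCK1P1, PNCK, RP1L1 and LINC01503, had at most a mean of 2.78 CPM in either group and log2 fold changes from -2.23 to -1.08. None of the 8 had an edgeR adjusted p under 0.05.

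**Figure D2:**
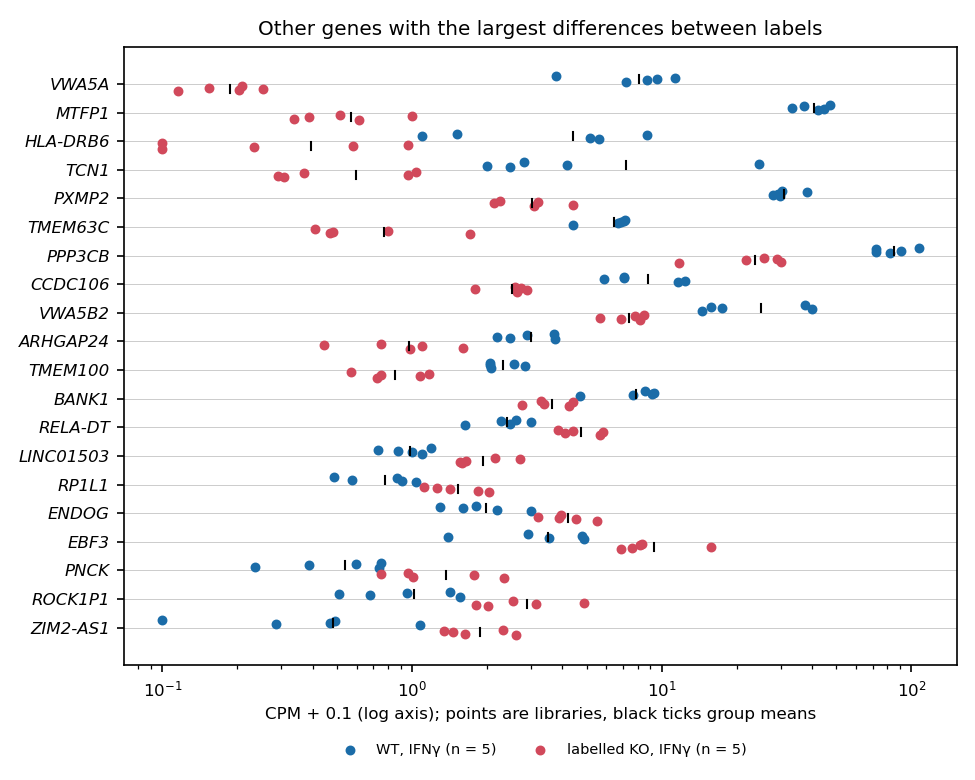
CPM + 0.1 on a log axis for the genes outside CIITA and MHC-II that either tool called, or that had the largest non-overlapping folds, in treated WT clones (blue, n = 5) and treated libraries labelled KO (red, n = 5). Points are libraries and black ticks group means. MTFP1 lies at 33.2 CPM or more in all WT clones and at 0.902 CPM or less in all libraries labelled KO, and EBF3 and RELA-DT are among the genes whose libraries labelled KO all lie to the right of the WT clones.

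These genes were then set beside the untreated libraries of the same clones, where edgeR called 3 of 19505 genes (0.0154%). MTFP1, PXMP2 and VWA5A had untreated log2 fold changes of 6.002, 3.44 and 5.29. PPP3CB had 1.83, TMEM63C 2.75, CCDC106 1.96, VWA5B2 1.62 and TCN1 3.95 in untreated libraries, and the untreated groups did not overlap for any of these 8 genes, a class that held 0.959% of all genes in either direction and 0.528% on the WT side. TMEM100 did not overlap either (1.22), whereas BANK1 (0.37) and ARHGAP24 (1.48) overlapped between labels in untreated libraries. CIITA likewise overlapped between labels without IFNγ, at 3.16 ± 0.877 against 2.03 ± 0.508 CPM (SD, n = 5 each), and after IFNγ its mean was 25.3 times (WT) and 4.58 times (KO label) the untreated mean. In log2 units the responses differed by 2.44 (edgeR unadjusted p = 0.000197, adjusted p = 1). Of the MHC-II genes HLA-DMB had the smallest p for this difference, at 3.88 (edgeR unadjusted p = 0.000944, adjusted p = 1). In no gene of 21052 did edgeR find a difference between the responses at an adjusted p under 0.05, and DESeq2 also found 0. In edgeR 86 (0.409%) had an unadjusted p under 0.05. These fits took the treated and untreated library of a clone as independent. With the clone as a block, 317 genes had an unadjusted edgeR p under 0.05, and 584 with untreated KO replicates 4 and 5 exchanged. Neither block gave an adjusted p under 0.05. Of the 160 genes (0.825%) whose treated groups did not overlap, 39 did not overlap in the same direction in untreated libraries, 31 of 111 on the WT side and 8 of 49 on the KO side.

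The spread of CIITA within a label allows a second view, which asks which genes follow CIITA from clone to clone. A slope of 1 on log2 scales means that a gene changes in proportion to CIITA, and the label is a term of the fit so that the difference between labels does not enter. Ordered by CIITA, the WT clones were replicates 1, 5, 4, 2 and 3, and the summed level of the 14 MHC-II genes was 2646, 1208, 2546, 1904 and 516 CPM in that order. The libraries labelled KO, ordered as replicates 4, 3, 5, 2 and 1, summed to 687, 242, 43.6, 25.4 and 27.6 CPM. KO replicate 4 thus held more MHC-II transcript than WT replicate 3 with less CIITA, and WT replicate 5, with the next most CIITA after WT replicate 1, held less MHC-II transcript than WT replicates 2 and 4.

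**Figure D3:**
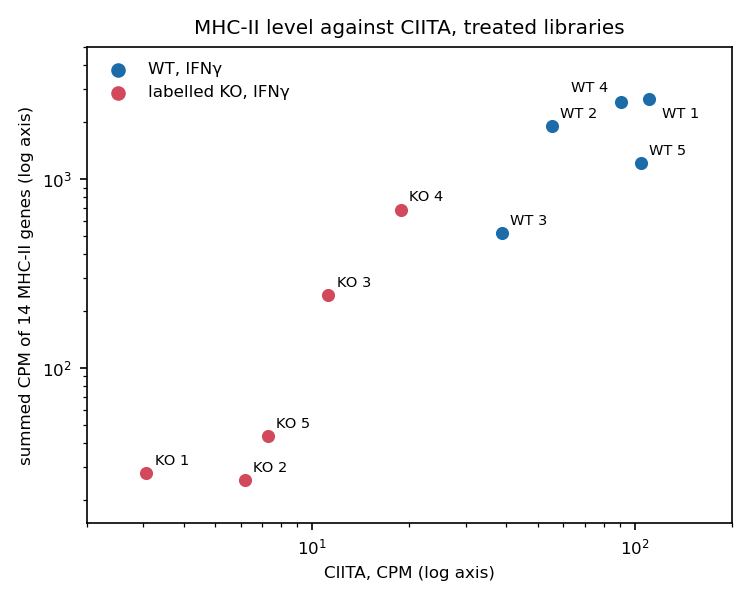
Summed CPM of 14 MHC-II genes against CIITA CPM, both on log axes, for the 10 treated libraries, with WT clones in blue, libraries labelled KO in red and replicate numbers beside the points. The libraries labelled KO span 25.4 to 687 CPM and the WT clones 516 to 2646 CPM of MHC-II transcript.

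No gene of 19382 passed an adjusted p under 0.05 for the slope in edgeR, where 1025 (5.29%) had an unadjusted p under 0.05, 490 (2.53%) rising and 535 (2.76%) falling with CIITA, and DESeq2's Wald test called 28. With all 10 libraries the MHC-II genes stood high in the order of p values. All 14 had slopes above 0, 10 of 14 had an unadjusted p under 0.05, and 6 were among the 15 smallest p values of all genes. HLA-DRB1 had the smallest p with a slope of 1.77 (SE 0.31), followed by HLA-DPA1 with 1.43 (SE 0.26) and HLA-DRA with 1.67 (SE 0.32). CD74 had a slope of 1.91 (SE 0.42), HLA-DMA 1.60 (SE 0.32) and HLA-DMB 1.03 (SE 0.23), whereas HLA-DOB had 0.13 (SE 0.35). A slope over 1 was found in 0.573% of all genes. That rank depends on single libraries and on the filter. It held 0 MHC-II genes among the 15 smallest p values without KO replicate 4 or without the 2 libraries farthest from the median CIITA level, and 2 without KO replicate 1 or with no filter, while 13 or 14 of the 14 slopes stayed above 0. Without KO replicate 3 only 3 MHC-II genes were among the 15 smallest p values, and the slopes of HLA-DRB1, HLA-DPA1 and HLA-DRA were 1.73, 1.43 and 1.63. With no term for the label, so that the difference between labels enters, 9 genes (0.0464%) passed, 8 of them MHC-II genes and the other PPP3CB.

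A few genes outside MHC-II were also among the 15 smallest p values for the slope. IL1RAP, the accessory receptor chain for interleukin-1 and interleukin-33, had 72.1, 79.8, 65.1, 45.6 and 24.7 CPM in WT clones ordered from the most to the least CIITA, and 113, 44.4, 84.3, 25.5 and 12.7 CPM in libraries labelled KO in the same order. Its slope was 1.08 (SE 0.22, edgeR unadjusted p = 0.000550), and the range of the libraries labelled KO enclosed that of the WT clones. IFI27, an interferon-induced gene, had 40.5, 30.7, 119.8, 19.4 and 11.3 CPM in the WT order and 107, 42.1, 35.4, 34.6 and 8.54 CPM in the KO order (slope 1.40, SE 0.31, edgeR unadjusted p = 0.000884). SH3TC1 (slope 1.05, SE 0.23), GABARAPL1, an autophagy protein of the ATG8 family (0.35, SE 0.08), and FYTTD1, an mRNA export adaptor (0.33, SE 0.07), also had slopes above 0. LOC124903137 (-2.44, SE 0.49), LOC124901287 (-1.34, SE 0.28), LOC284581 (-1.13, SE 0.24) and NRTN, the growth factor neurturin (-0.94, SE 0.21), had slopes below 0. On the KO side of LOC124903137, KO replicate 1 had 1.46 CPM and the others at most 0.0574 CPM. None of these 9 passed the adjusted threshold in edgeR.

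Interferon genes as a group leaned the same way along CIITA. Of 71 tested interferon-stimulated genes 59 had slopes above 0 (median 0.14, against -0.0056 over all genes, of which 9416 of 19382 were above 0), and 8 had an unadjusted p under 0.05, all with slopes above 0, a class of 2.53% of all genes. Of the 16 tested genes of the receptor pathway 15 had slopes above 0, with unadjusted p values under 0.05 for JAK2 (0.35, SE 0.10), SOCS1, a feedback inhibitor of JAK kinases (0.33, SE 0.13), and PTPN2, a phosphatase of JAK and STAT proteins (0.45, SE 0.16). Of the MHC-II genes HLA-DOB had a slope below all 3 of these and HLA-DQB2 one close to that of PTPN2 (0.47, SE 0.35), and the other MHC-II slopes lay above them.

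Between labels, by contrast, the interferon genes were close together. IRF1, a transcription factor that IFNγ induces, had a mean of 527 ± 61.9 CPM in WT clones and 500 ± 162 CPM in libraries labelled KO (SD, n = 5 each). The 71 interferon-stimulated genes had log2 fold changes from -0.76 to 0.89 with a median of 0.08, none was called by either tool, and 1 had an unadjusted edgeR p under 0.05 on the WT side. Without KO replicate 3 this WT-side count was 8 of 71, with 0 on the KO side and a median of 0.11. Of all genes 2.37% passed on the WT side with all libraries. In either direction 843 of 19383 passed with all libraries and 913 of 19752 without KO replicate 3. The interferon-stimulated gene past it with all libraries, HERC6, had 48.5 ± 5.05 CPM against 31.9 ± 5.01 CPM (SD, n = 5 each) without overlap. HERC6 was chosen after its values were seen. The chemokine genes CXCL9 and CXCL11 had the highest log2 fold changes, 0.89 (SE 0.60) and 0.85 (SE 0.47), and both turned on WT replicate 4, which had 496 CPM of CXCL9 against 36.2 to 97.4 CPM in the other WT clones. Without WT replicate 4 the log2 fold change of CXCL9 was -0.24. The 21 tested genes of MHC-I and its peptide supply had a median of 0.16. Of these genes CALR, the chaperone calreticulin, was the exception with 1260 ± 165 CPM against 870 ± 98.8 CPM and no overlap (log2 fold change 0.52, SE 0.13, edgeR unadjusted p = 0.00218, adjusted p = 0.935).

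Genes of endosomal antigen processing, which are cathepsins and other proteases, the reductase IFI30 and LAMP membrane glycoproteins, leaned towards WT clones. Of 12 tested genes 11 had log2 fold changes above 0, the median was 0.36, and 6 had an unadjusted edgeR p under 0.05 on the WT side, a class of 2.37% of genes. None was called. Cathepsin H (CTSH) had 9.22, 11.4, 19.4, 10.3 and 13.6 CPM in WT clones and 11.1, 4.85, 6.65, 4.66 and 4.82 CPM in libraries labelled KO, where KO replicate 1 reached into the WT range (log2 fold change 0.99, SE 0.29). Cathepsin B (CTSB) had 1844, 1594, 2211, 674 and 1554 CPM against 954, 475, 1205, 783 and 924 CPM, with WT replicate 4 below all but 1 of the libraries labelled KO (log2 fold change 0.85, SE 0.30). LAMP1, a lysosomal membrane glycoprotein chosen here after its values were seen, had 655 against 518 CPM on average, without overlap. Within labels the list had a median slope along CIITA of -0.08, with 5 of 12 slopes above 0 and 1 unadjusted p under 0.05, that of CTSH (-0.41, SE 0.14). In untreated libraries the median of the list was 0.32.

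Matrix genes were also mostly higher in WT clones. Of 19 collagens and matrix genes 17 had log2 fold changes above 0 (median 0.41), 3 with an unadjusted edgeR p under 0.05 on the WT side, where 2.37% of all genes passed. COL11A1, a fibrillar collagen chain, had 129, 200, 126, 168 and 104 CPM in WT clones and 51.2, 67.4, 67.3, 73.1 and 118.5 CPM in libraries labelled KO (log2 fold change 0.92, SE 0.24, edgeR adjusted p = 0.967). KO replicate 5 alone reached the WT range. Fibronectin (FN1) had 2564 to 8863 CPM in WT clones, median 4299 CPM, and 1745 to 3774 CPM in libraries labelled KO, median 2916 CPM (log2 fold change 0.76, SE 0.34). COL1A1, the type I collagen chain counted here among the osteoblast lineage markers, had 1839, 2670, 1365, 3317 and 3496 CPM against 358, 2986, 657, 1004 and 279 CPM, and KO replicate 2 was the library labelled KO that overlapped the WT range (log2 fold change 1.26, SE 0.58). The median of the matrix list in untreated libraries was 0.30.

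The remaining lists showed little. Of 26 tested cell cycle and replication genes 21 had log2 fold changes below 0 (median -0.15), but none had an unadjusted p under 0.05. The thymidylate synthase gene TYMS, on chromosome 18, had the most negative value, -0.45 (SE 0.27), and shares 42.4% of its exonic bases with genes on the opposite strand. Without KO replicate 3, 25 of the 26 were below 0 and 1 had an unadjusted p under 0.05. Telomere genes (21 tested) had a median of -0.0036, with 1 unadjusted p under 0.05, that of ZBTB10, another telomere-binding zinc finger gene, at 59.3 ± 13.0 CPM in WT clones against 77.4 ± 5.18 CPM in libraries labelled KO (SD, n = 5 each, log2 fold change -0.40, SE 0.16). Peroxisome genes (22 tested, median 0.04) had 1, PEX10, a peroxisomal ubiquitin ligase, at 13.4 ± 0.894 against 9.65 ± 2.46 CPM (SD, n = 5 each), with 46.8% of its exonic bases shared with RER1 on the opposite strand. Mitochondrial fission and fusion genes other than MTFP1 (14 tested, median -0.02), butyrophilins (6, median 0.20), co-stimulation and adhesion genes (7, median 0.22) and immediate-early and heat-shock genes (18, median 0.02) had none.

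Position showed 2 chromosomes apart from the others. Of 294 tested genes on chromosome 18, 12.9% had log2 fold changes above 0 and the median was -0.30, so that genes of this chromosome were mostly lower in WT clones. The median deviation of a library over these genes from the mean of the 10 libraries was 0.05, -0.25, -0.20, -0.13 and -0.11 on the log2 scale in WT replicates 1 to 5 and between 0.05 and 0.25 in the libraries labelled KO. On chromosome 17, with 1127 tested genes, 71.5% were above 0 and the median was 0.13, with WT replicates 2 and 3 at 0.15 and 0.22 and the other libraries between -0.16 and 0.01. In untreated libraries the medians were -0.285 and 0.12. Of the genes named above, TYMS, PTPN2 and ROCK1P1 lie on chromosome 18 and COL1A1 and TMEM100 on chromosome 17. The part of chromosome-wide level in the values of these genes was not tested.

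**Figure D4:**
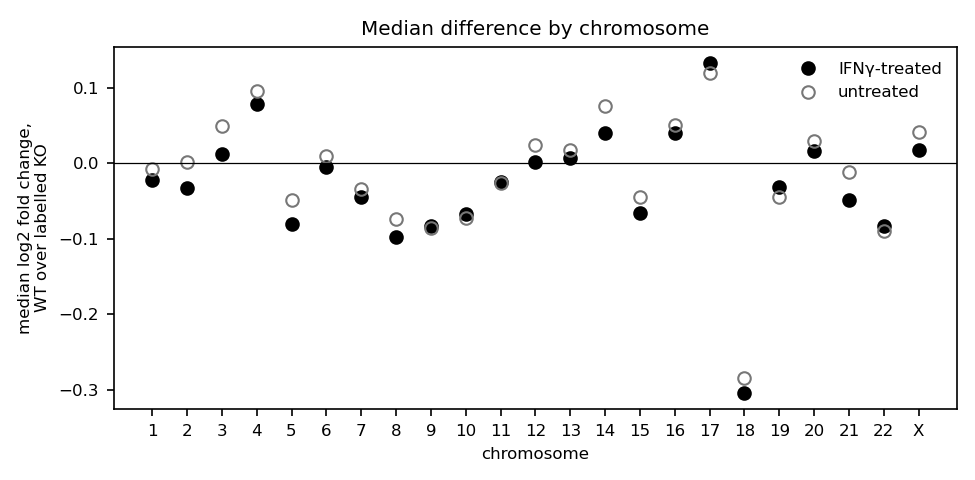
Median log2 fold change (WT clones over libraries labelled KO) of the tested genes of each chromosome in treated (filled) and untreated (open) libraries. Chromosome 18 lies at -0.30 and -0.285, below all others, and chromosome 17 at 0.13 and 0.12.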

How the data were processed

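RNA was measured by stranded poly(A) mRNA sequencing. The authors deposited read counts per gene, not normalized, for 20 libraries. Per the submitters' processing notes STAR 2.7.9a, featureCounts 2.4.0, DESeq2 1.40.1 and deepTools 3.5.1 were used. The strand setting of the counting is not given in the sources used here.

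The deposited counts of the 10 treated libraries were fitted with edgeR 4.0.16 (quasi-likelihood, TMM, filterByExpr, robust) in R 4.3.3, with limma 3.58.1 loaded and DESeq2 1.42.0 as an alternative. A gene was called at a Benjamini-Hochberg adjusted p under 0.01 and more than 2-fold. CPM values are TMM scaled over all 20 libraries, and 3 counts were taken as the floor, which covers counting error only. Genes following CIITA were sought with log2 CIITA CPM, centred within labels, beside the label, at an adjusted p under 0.05. Fits were tested on simulated data. Replicates are separate clones, and WT and KO replicate numbers were not treated as pairs. Promoter windows came from RefSeq (GRCh38.p14). Of the 14 MHC-II genes 13 matched, and of 13 other genes called by either tool 9.

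Named genes were ZBTB48, CIITA, the MHC-II lists, their promoter-binding factors, the study's ZBTB48 targets, genes called by either tool, the 10 largest non-overlapping folds in each direction over 2-fold with a mean of at least 1 CPM in the higher group, the 15 smallest p values for the slope, and in every other list the 2 members with the largest absolute log2 fold change and a mean of at least 1 CPM. IRF1, JAK2, HERC6, LAMP1 and the genes of the closing section fall outside this rule and were chosen after their values were seen. The comparison, its members and the 19 gene lists were chosen with earlier results of these data known. Alternatives were other scalings, filters and tools, a replicate block, and leaving out each library. Some items are not reported here.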

Additional observations from a re-analysis of the deposited data

Results flagged for a closer look

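In 160 groups of 5 treated libraries, 19 had a highest or lowest library whose gap to its neighbour exceeded 0.71 of the group's range (Dixon's 95% critical value). Independent, normally distributed values would give about 8. The groups hold unlogged CPM of named genes, many of them picked from these same libraries and moving together. The number 8 is therefore no baseline for the 19. WT replicate 4 accounted for 6 of them. It had 9.78 CPM of HLA-DQA1 (next 3.17 CPM), 17.6 CPM of NFYB (14.5 CPM), 38.0 CPM of PXMP2 (30.1 CPM), 24.3 CPM of TCN1 (4.06 CPM), 119.8 CPM of IFI27 (40.5 CPM) and 496 CPM of CXCL9 (97.4 CPM).

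KO replicate 3 stood apart for 3 genes, with 15.97 CPM of ZBTB48 (next 5.17 CPM), 15.6 CPM of EBF3 (8.28 CPM) and 1.68 CPM of CCDC106, the lowest of its group (next 2.48 CPM). KO replicate 4 had 52.0 CPM of HLA-DPA1 (next 16.7 CPM) and 3.99 CPM of HLA-DOA (0.765 CPM). KO replicate 1 had 1.46 CPM of LOC124903137 (0.0574 CPM) and 1.19 CPM of LOC124901287 (0.206 CPM), and KO replicate 2 had 103.6 CPM of NFYA (71.9 CPM) and 2986 CPM of COL1A1 (1004 CPM).

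Of the remaining WT clones, replicate 1 had 4.33 CPM of TMEM63C, the lowest of its group (next 6.60 CPM), and 69.6 CPM of PTPN2 (34.9 CPM), replicate 3 had 16.9 CPM of CD68 (5.51 CPM), and replicate 5 had 108.8 CPM of MFF (65.7 CPM). What set these libraries apart was not tested.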

How the results depend on the processing

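MTFP1, PXMP2 and VWA5A were called in the treated libraries under each alternative except the replicate block, where VWA5A was lost (2 genes). The count was 5 with no filter, 16 with unshrunken and 6 with shrunken DESeq2 (without CIITA and any MHC-II gene), 6 with all 20 libraries fitted together, and 3 to 5 with each library left out, the 5 without KO replicate 1 adding PPP3CB and TMEM63C. In untreated libraries, 3 genes became 13 with DESeq2, 5 with no filter, 1 with the replicate block and 2 to 4 with each library left out. For the CIITA slope, 0 genes became 9 with no term for the label, 28 with DESeq2's Wald test and 0 to 1 with each library left out, the 1 being IL1RAP without KO replicate 5. No alternative gave a call for the difference between IFNγ responses.

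Shrunken DESeq2 gave medians of 0.30 for the MHC-II chains, 0.25 for peptide editing, 0.15 for HLA-DRB6 and 2.25 for the study's targets. With no filter the non-coding relatives of MHC-II, which HLA-DRB6 belongs to, had a median of 2.24. With each library left out the targets ranged from 6.21 to 6.42 and the chains from 3.14 to 4.32. ZBTB48 ranged from 1.05 to 1.85, with an exact permutation p of 0.00794 without KO replicate 3, and CIITA from 2.91 to 3.56. Counted over combinations of a gene list and an alternative, 336 medians moved by less than the spread between libraries and 6 did not.

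Directions turned for CXCL9 (-0.24 to 1.15 with each library left out), LOC124901287 (-1.25 to 0.31) and the slope of HLA-DQB2 (-0.27 to 1.20), for the slope of LOC124903137 with no term for the label (0.12) and for that of HLA-DOB without the 2 libraries farthest from the median CIITA level (-0.039). The causes of these changes were not tested.

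The replicate numbers of WT and KO clones do not mark pairs: the deviations of same-numbered libraries correlated at -0.177 to 0.131 over 19383 genes. With the replicate block, an exact sign-flip test of CIITA gave a difference of 3.25 with p = 0.0625, the smallest it can give. Exchanging the untreated KO replicates 4 and 5 in a clone block was chosen after seeing the data.

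Levels at or under 3 counts could not be told from 0 at this depth, which touches VWA5A and several MHC-II genes in libraries labelled KO.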

Other observations

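Lysosomal enzymes and their sorting factors, a list drawn up after values of these data were seen and therefore without a test of the list, were mostly higher in WT clones. Of 38 tested genes 35 had log2 fold changes above 0, with a median of 0.35 (0.30 in untreated libraries). An unadjusted edgeR p under 0.05 was found on the WT side for 13, where 2.37% of all genes passed, and none had an adjusted p under 0.01. NAGLU, which degrades heparan sulfate, had 48.1 ± 9.82 CPM in WT clones and 24.6 ± 4.07 CPM in libraries labelled KO (SD, n = 5 each). CTSA, the protective protein of lysosomal neuraminidase, had 211.9 ± 49.5 against 122 ± 25.2 CPM, and GNPTG, a subunit of the enzyme that makes the mannose 6-phosphate tag, 52.7 ± 9.06 against 33.2 ± 3.51 CPM (SD, n = 5 each). In these 3 genes and in GLB1 and NEU1 the groups did not overlap, as for 0.573% of all genes on the WT side. NPC1, a cholesterol exporter of the lysosome, had the opposite sign with 80.5 ± 33.1 against 101.9 ± 52.8 CPM (log2 fold change -0.35). It lies on chromosome 18, whose tested genes had a median of -0.30. NAGLU, on the WT side, lies on chromosome 17, whose tested genes had a median of 0.13. The part of chromosome-wide level in these values was not tested. The summed level was 5981 to 7420 CPM in WT clones and 4777 to 6627 CPM in libraries labelled KO, where KO replicate 3 was the highest.

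Folding enzymes of the endoplasmic reticulum, listed in the same way, summed to 6898 to 8455 CPM in WT clones and 5596 to 6658 CPM in libraries labelled KO, without overlap. CALR, PDIA3 and CANX are in this list and in the MHC-I list above, so the lists are not independent. Of 18 genes 15 had log2 fold changes above 0 (median 0.26, untreated 0.21), 7 with an unadjusted edgeR p under 0.05 on the WT side, where 2.37% of all genes passed, and none with an adjusted p under 0.01. P4HB, a protein disulfide isomerase and prolyl hydroxylase subunit, had 1480 ± 142.8 against 993.9 ± 80.4 CPM and HSP90B1, the chaperone GRP94, 849.5 ± 103 against 662 ± 40.5 CPM (SD, n = 5 each). P4HB also lies on chromosome 17. The stress sensor target DNAJB9 was on the other side, at 12.8 ± 2.21 against 16.4 ± 4.19 CPM.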
